A study of Homo sapiens with 18 samples.

Results

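Feedback and output genes of the RAS-MAPK pathway were followed through TGFβ-induced EMT in 3 human lung cancer cell lines. The set held 10 genes, chosen by a match of their symbol in an expression table of 19849 genes: the phosphatase genes DUSP4, DUSP5 and DUSP6, the Sprouty genes SPRY1, SPRY2 and SPRY4, the Spred genes SPRED1 and SPRED2, and the PEA3 transcription factor genes ETV4 and ETV5. All 10 were found, each read by 1 probe set. The lines were A549, NCI-H358 and HCC827, the last of which is driven by mutant EGFR. Each line was profiled as parental cells and as mesenchymal cells, with 3 arrays for each of these 6 groups and 18 in all. The mesenchymal cells had received 2 ng/ml TGFβ for 3 weeks per the labels, while the methods give a range of durations. Per the methods, cells were then re-seeded in new plates in TGFβ-free medium 1 day before an experiment. Both states grew in RPMI1640 with serum and glutamine. The labels do not say whether parental cells were re-seeded or had a change of medium on that day. The mesenchymal state, the earlier TGFβ, its withdrawal and the re-seeding therefore cannot be told apart. The replicates of a group are described as biological samples made at the same time, in 1 line each.

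In this pathway, receptors such as EGFR load RAS with GTP, and RAS then activates the RAF, MEK and ERK kinases in turn. Active ERK induces genes that shut the pathway down again. The DUSP genes in this set encode phosphatases that remove phosphate from MAP kinases: DUSP6 resides in the cytoplasm and prefers ERK, DUSP5 acts on ERK in the nucleus, and DUSP4 is a nuclear enzyme with a wider choice of MAP kinases. Sprouty proteins restrain signalling between the receptor and RAF, and Spred proteins bring the RAS inhibitor neurofibromin to the membrane. ETV4 and ETV5 are ETS-family factors that are induced by ERK and carry its signal to further genes. Because they are made in response to ERK, transcripts of this kind are often read as a measure of pathway output, but no kinase activity was measured on these arrays.

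DUSP6 and SPRY1 had the largest changes in the set, and the reference sequence of the 250 bases before their annotated start is shown for orientation (RefSeq, GRCh38.p14, 5′ to 3′ on the strand of the gene). The DUSP6 window lies at chr12:89352502-89352751 on the minus strand, and the first of the SPRY1 windows at chr4:123396545-123396794 on the plus strand. A second SPRY1 start lies downstream, and a stretch of 27 bases before it, at chr4:123398309-123398335, holds the letters CCGGAAG of an ETS motif, printed in capitals.
DUSP6: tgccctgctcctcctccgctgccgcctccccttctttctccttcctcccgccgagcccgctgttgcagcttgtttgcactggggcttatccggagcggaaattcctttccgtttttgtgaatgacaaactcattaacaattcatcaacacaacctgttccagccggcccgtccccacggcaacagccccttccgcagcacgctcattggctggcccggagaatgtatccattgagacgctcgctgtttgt
SPRY1: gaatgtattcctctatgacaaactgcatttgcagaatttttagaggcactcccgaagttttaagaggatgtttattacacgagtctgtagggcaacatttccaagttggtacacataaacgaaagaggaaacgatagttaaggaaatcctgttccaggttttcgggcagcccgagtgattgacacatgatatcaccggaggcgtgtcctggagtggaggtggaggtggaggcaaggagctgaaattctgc
SPRY1 second start: ccctccgcagCCGGAAGggggccgcgg
The GC content of the full 250-base windows was 57.2% for DUSP6, 45.6% for the first SPRY1 start and 68% for the second, against a median of 58% over all promoters. Entries were found for 6 of the 10 genes, with 10 windows. The ETS motif, searched on both strands, occurred in 1 of these 10 windows and in 8.52% of all 35116 promoters. The AP-1 motif TGANTCA occurred in 0 of the 10 windows and in 6.57% of promoters, the cyclic AMP response element TGACGTCA in 0 and 1.65%, and the Smad box GTCTAGAC in 0 and 0.182%. These are matches of letters, and no binding was measured.

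Levels are given on the log2 scale of RMA, a method that equalizes signal between arrays, so that a difference of 1 is 2-fold. A change is the mesenchymal minus the parental mean. A gene was called when its Benjamini-Hochberg adjusted p over all 19849 genes (limma) was below 0.05 and its change exceeded 2-fold. The words fell and rose are also used for smaller changes with an adjusted p below 0.05, and those are named as under 2-fold.

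The labelled states were checked with marker genes. CDH1, which encodes E-cadherin, was lower in mesenchymal cells in every line, with a change of -5.81 log2 units in A549 (95% interval -6.11 to -5.51), of -2.95 in HCC827 and of -3.94 in NCI-H358. CDH2, which encodes N-cadherin, changed by 1.94, 3.26 and 2.04 in the same order. Of 5 epithelial markers, 3 were called lower in A549 and all 5 in each of the other lines. Of 5 mesenchymal markers, 2 were called higher in A549 and 4 in each of the other lines. VIM and ZEB1 in A549 rose by less than 2-fold, with log2 changes of 0.79 for both. Mean levels of 4 leukocyte markers lay between 2.83 and 5.76 and those of 3 endothelial markers between 3.97 and 5.32, below the array medians of 6.31 to 6.47. Among these 7 markers only CD14 was called, lower in A549. In these bulk RNA samples, a change in the share of cells that express a gene and a change of its RNA per cell cannot be told apart.

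Of 8 calls made for the members over the 3 lines, 7 were falls in mesenchymal cells, and the lines differed in which genes fell. DUSP4 and DUSP5 were called lower in A549, SPRY1 and SPRY2 in HCC827, and DUSP5, DUSP6 and SPRY1 in NCI-H358. The transcription factor gene ETV5 was called higher in HCC827, and no other member was called higher in any line. DUSP4 and SPRY1 fell in all 3 lines at an adjusted p below 0.05, though not by more than 2-fold in each. Over all genes, 3.87% were called lower and 4.15% higher in A549, beside 2 and 0 of the 10 members. In HCC827 6.58% were called lower and 4.89% higher, beside 2 and 1 members. In NCI-H358 5.42% were called lower and 3.96% higher, beside 3 and 0 members. In A549 and NCI-H358, where no member was called higher, 3 and 1 members were higher at an unadjusted p below 0.05 by limma. The members had a median change of 0.0048 in A549, against -0.021 over all genes. In HCC827 the medians were 0.15 and 0.0051, and for NCI-H358 they were -0.48 and 0.015.

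Small changes were common among the members and among genes at large. An adjusted p below 0.05 at any size was reached by 7, 9 and 7 members for A549, HCC827 and NCI-H358, beside 43.4%, 45.8% and 41.4% of all genes. Parental and mesenchymal arrays did not overlap for 7, 9 and 8 members, and for 52.4%, 51.2% and 51.6% of all genes. At the stricter thresholds used in the study, an adjusted p below 1e-05 and a change above 5-fold, 0, 1 and 1 members passed, namely SPRY1 in HCC827 and DUSP6 in NCI-H358. The shares of all genes that passed were 1.90%, 2.95% and 2.17%.

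**Figure D1:**
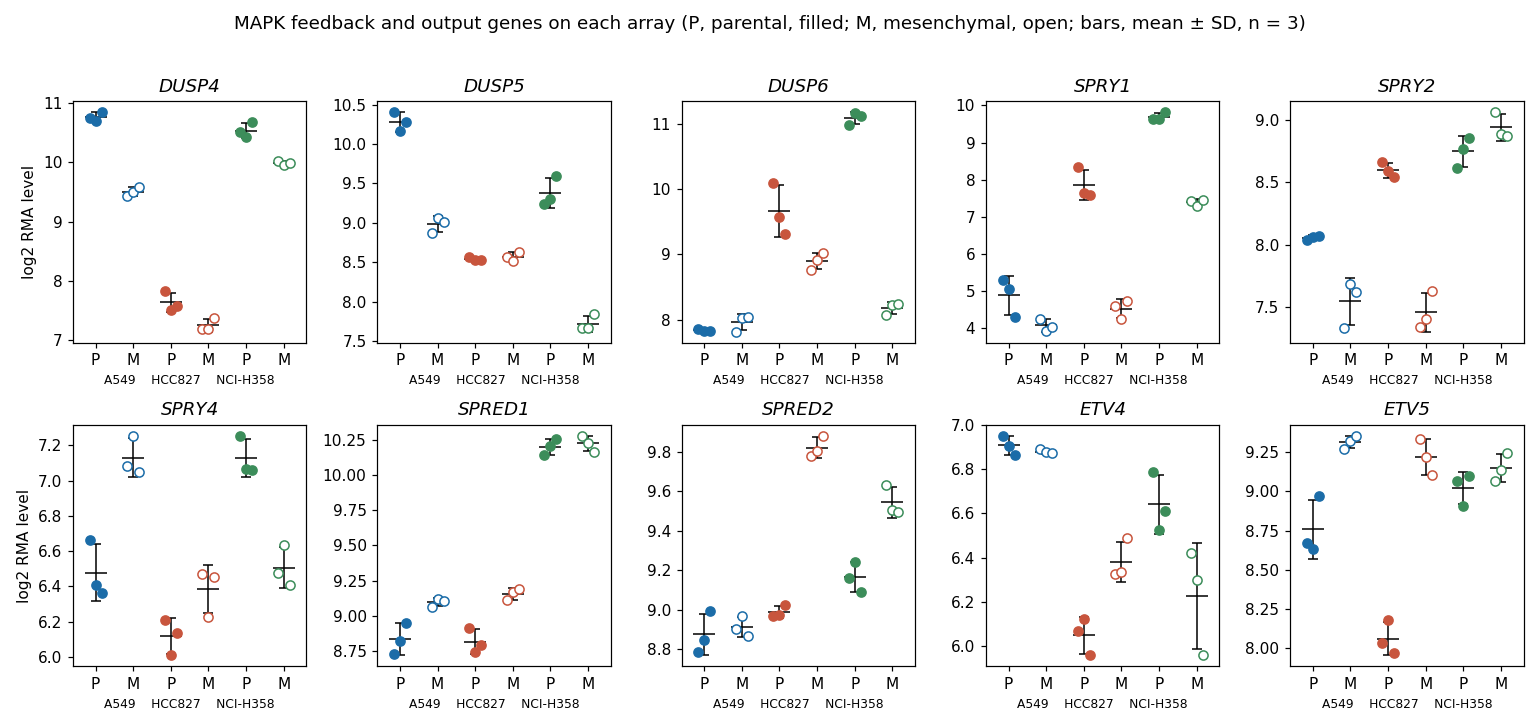
Log2 RMA level (vertical axis, scaled per gene) of each of the 10 genes on every array, with parental (P, filled) and mesenchymal (M, open) cells of A549, HCC827 and NCI-H358 along the horizontal axis and bars for the mean ± SD (n = 3). SPRY1 spans 5.61 log2 units between its lowest and highest group mean, whereas ETV4 spans 0.86.

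Among the phosphatases, DUSP6 (Entrez 1848, probe set 208893_s_at), the cytoplasmic ERK phosphatase, showed the largest fall. In parental NCI-H358 cells its levels were 10.98, 11.16 and 11.13, and in mesenchymal cells they were 8.08, 8.22 and 8.23. All 3 mesenchymal arrays lay far below the parental arrays, and the change of -2.91 (SE 0.14, adjusted p = 1.99e-11) was a 7.53-fold fall. In HCC827 the parental arrays read 10.10, 9.57 and 9.32 and the mesenchymal arrays 8.76, 8.92 and 9.02. These groups did not overlap either, and the fall of 0.76 log2 units stayed under 2-fold (SE 0.14, adjusted p = 0.000185). In A549 the levels were 7.86, 7.83 and 7.82 before and 7.82, 8.02 and 8.04 after EMT. The A549 groups overlapped and the change was 0.12 (SE 0.14, adjusted p = 0.523, 95% interval -0.17 to 0.42). Parental A549 was the lowest of the 6 groups for DUSP6, and mesenchymal NCI-H358 cells, at a mean of 8.18, did not differ beyond the spread from mesenchymal A549 cells at 7.96 (adjusted p = 0.192).

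DUSP5 (Entrez 1847, probe set 209457_at), the nuclear ERK phosphatase, fell in A549 and NCI-H358. In A549 it read 10.41, 10.16 and 10.28 in parental and 8.87, 9.07 and 9.01 in mesenchymal cells. In NCI-H358 it read 9.24, 9.30 and 9.60 in parental and 7.67, 7.66 and 7.84 in mesenchymal cells. Neither pair of groups overlapped, and the changes were -1.30 (SE 0.092, adjusted p = 3.96e-09) and -1.66 (SE 0.092, adjusted p = 1.43e-10). HCC827 showed no such difference: its parental arrays read 8.57, 8.52 and 8.53 and its mesenchymal arrays 8.57, 8.52 and 8.63. The change there was 0.027 with a 95% interval of -0.17 to 0.22, so that a fall as large as in the other lines lay outside the interval.

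DUSP4 (Entrez 1846, probe set 204014_at), a phosphatase of ERK and other MAP kinases, fell in every line and by more than 2-fold in A549. Its levels in A549 were 10.75, 10.69 and 10.85 in parental and 9.44, 9.50 and 9.59 in mesenchymal cells. The fall was 2.39-fold (change -1.26, SE 0.088, adjusted p = 3.49e-09). In HCC827, where the gene was lowest, it read 7.83, 7.52 and 7.58 before and 7.20, 7.19 and 7.38 after EMT, a change of -0.39 (adjusted p = 0.00144). NCI-H358 arrays read 10.51, 10.43 and 10.68 in parental and 10.03, 9.96 and 9.98 in mesenchymal cells, a change of -0.55 (adjusted p = 6.54e-05). In no line did the groups overlap. HCC827 stood apart in both states: its highest array, at 7.83, lay below the lowest array of the other lines, at 9.44.

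SPRY1 (Entrez 10252, probe set 212558_at), which encodes an inhibitor of signalling from receptor to RAF, had the widest range of the set. In HCC827 it fell from 8.33, 7.65 and 7.59 to 4.59, 4.26 and 4.74, a decrease of 10.0-fold on the measured scale (change -3.33, SE 0.22, adjusted p = 1.09e-09). In NCI-H358 it fell from 9.62, 9.64 and 9.82 to 7.44, 7.30 and 7.46, a 4.91-fold decrease (change -2.30, SE 0.22, adjusted p = 1.60e-07). The groups were far apart in both lines. In A549 the gene was dim, with 5.31, 5.07 and 4.31 in parental and 4.26, 3.94 and 4.05 in mesenchymal cells. The A549 groups were separated by a narrow gap, and the change was -0.81 (SE 0.22, adjusted p = 0.00586). Without the third parental A549 array, which was the lowest, the change was -1.11 and passed the 2-fold threshold. The mean in mesenchymal A549 cells stood at percentile 17.0 of all genes, and mesenchymal HCC827 cells (mean 4.53) did not differ beyond the spread from it (adjusted p = 0.0938) or from parental A549 cells (adjusted p = 0.174). No detection call was used here. A SPRY1 difference between a brighter group and one of these 3 dim groups may therefore be a lower limit, which was not tested. The change in A549, between dim groups, is given as measured.

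SPRY2 (Entrez 10253, probe set 204011_at) fell 2.21-fold in HCC827, from 8.66, 8.59 and 8.54 to 7.34, 7.40 and 7.63 (change -1.14, SE 0.098, adjusted p = 3.33e-08). In A549 it read 8.04, 8.06 and 8.07 in parental and 7.33, 7.69 and 7.62 in mesenchymal cells. That fall was under 2-fold, with a change of -0.51 (adjusted p = 0.000387). In NCI-H358 the parental arrays read 8.61, 8.77 and 8.86 and the mesenchymal arrays 9.07, 8.89 and 8.87. The NCI-H358 groups touched without overlapping, and the change of 0.19 missed the threshold (adjusted p = 0.133, 95% interval -0.013 to 0.40).

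SPRY4 (Entrez 81848, probe set 221489_s_at) moved in opposite directions among the lines, by under 2-fold in each. It rose in A549 from 6.66, 6.41 and 6.36 to 7.09, 7.26 and 7.05 (change 0.65, adjusted p = 3.97e-05). In NCI-H358 it fell from 7.25, 7.07 and 7.06 to 6.48, 6.64 and 6.41 (change -0.62, adjusted p = 6.28e-05). HCC827 arrays read 6.21, 6.01 and 6.14 in parental and 6.47, 6.23 and 6.45 in mesenchymal cells, without overlap. The HCC827 change of 0.27 had an adjusted p of 0.0367, which rose to 0.0634 in a fit of that line alone and to 0.143 without the second parental array, 0.0632 without the third, 0.130 without the first mesenchymal array and 0.114 without the third.

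SPRED1 and SPRED2, the genes of the neurofibromin partners, were not lower at an adjusted p below 0.05 in any line. SPRED2 (Entrez 200734, probe set 212458_at) rose in HCC827 from 8.97, 8.97 and 9.02 to 9.78, 9.80 and 9.88, by 0.83 log2 units or 1.78-fold (SE 0.068, adjusted p = 1.69e-08). It also rose in NCI-H358, from 9.16, 9.24 and 9.09 to 9.63, 9.51 and 9.49 (change 0.38, adjusted p = 0.000186). Neither pair of groups overlapped, although both changes stayed under 2-fold. A549 arrays overlapped, with 8.79, 8.85 and 8.99 in parental and 8.90, 8.97 and 8.87 in mesenchymal cells (change 0.037, adjusted p = 0.704).

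SPRED1 (Entrez 161742, probe set 226837_at) rose by little. In A549 it went from 8.73, 8.82 and 8.95 to 9.07, 9.12 and 9.10 (change 0.26, adjusted p = 0.00415). In HCC827 it went from 8.91, 8.74 and 8.79 to 9.11, 9.17 and 9.19 (change 0.34, adjusted p = 0.00045). The groups were apart in both lines. NCI-H358 had the highest SPRED1 levels of the lines, at 10.14, 10.20 and 10.25 in parental and 10.28, 10.23 and 10.16 in mesenchymal cells. Those groups overlapped, and the change was 0.024 (adjusted p = 0.838, 95% interval -0.12 to 0.17).

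ETV5 (Entrez 2119, probe set 203348_s_at), an ETS factor downstream of ERK, was the only member called higher. In HCC827 it rose 2.24-fold, from 8.03, 8.18 and 7.97 to 9.33, 9.22 and 9.11 (change 1.16, SE 0.094, adjusted p = 1.51e-08). In A549 it rose by under 2-fold, from 8.67, 8.63 and 8.97 to 9.27, 9.32 and 9.35 (change 0.56, adjusted p = 0.000104). NCI-H358 arrays overlapped, with 9.07, 8.91 and 9.10 in parental and 9.07, 9.13 and 9.25 in mesenchymal cells (change 0.12, adjusted p = 0.335). The mesenchymal means of the lines were 9.32, 9.22 and 9.15 in A549, HCC827 and NCI-H358, and neighbours in this order did not differ beyond the spread (adjusted p = 0.402 and 0.588).

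ETV4 (Entrez 2118, probe set 211603_s_at), its close relative, had the narrowest range of the set. Its means in parental HCC827 (6.05) and mesenchymal NCI-H358 cells (6.23) lay below the array medians of 6.31 to 6.47. The part of weak signal in this narrow range was not tested. ETV4 rose in HCC827 from 6.07, 6.12 and 5.96 to 6.32, 6.33 and 6.49 (change 0.33, adjusted p = 0.0105). The adjusted p was 0.0507 without the third mesenchymal array. In NCI-H358 it fell from 6.79, 6.52 and 6.61 to 6.42, 6.30 and 5.96 (change -0.42, adjusted p = 0.00249). The groups did not overlap in these lines. A549 arrays overlapped, at 6.95, 6.91 and 6.87 in parental and 6.89, 6.88 and 6.87 in mesenchymal cells (change -0.028, adjusted p = 0.857). With each array centred on its median gene this value became 0.040, so that no direction can be given for A549.

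**Figure D2:**
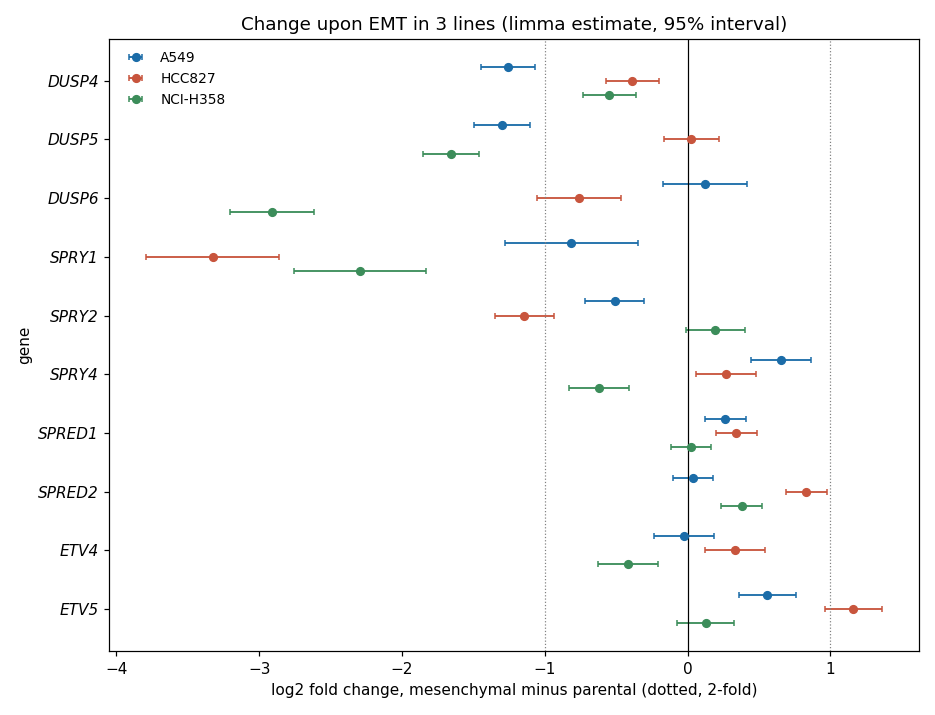
Log2 change of each gene, mesenchymal minus parental (horizontal axis, limma estimate with its 95% interval; dotted lines mark 2-fold), in A549, HCC827 and NCI-H358. SPRY1 lies at -3.33 in HCC827 and DUSP6 at -2.91 in NCI-H358, while DUSP5 in HCC827 and DUSP6 in A549 have intervals that include 0.

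Whether EMT changed a gene differently in 2 lines was tested directly, as the difference between their changes in the same fit. Between HCC827 and A549 2 of the 10 members were called, against 13.4% of all genes. Between NCI-H358 and A549 3 were called (12.7% of all genes), and between NCI-H358 and HCC827 5 were called (11.0%). These comparisons share arrays with each other. SPRY1 was the only member called in all 3 of them.

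DUSP6 set NCI-H358 apart: its change there minus that in A549 was -3.03 (SE 0.20, adjusted p = 1.62e-09), and minus that in HCC827 it was -2.15 (SE 0.20, adjusted p = 1.72e-07). HCC827 minus A549 gave -0.89 (adjusted p = 0.00137), under 2-fold, and was -1.06 without the third parental HCC827 array. DUSP5 set HCC827 apart, with a change above that of A549 by 1.33 (SE 0.13, adjusted p = 3.01e-07) and a change in NCI-H358 below that of HCC827 by a difference of -1.69 (SE 0.13, adjusted p = 2.31e-08). The DUSP5 change in NCI-H358 minus that in A549 was -0.36 (adjusted p = 0.0348).

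For SPRY1, the fall in HCC827 exceeded that in A549 by a difference of -2.51 (SE 0.31, adjusted p = 4.29e-06), and the fall in NCI-H358 exceeded that in A549 by -1.48 (SE 0.31, adjusted p = 0.000876). The level of SPRY1 in parental A549 cells (mean 4.90 ± 0.52, SD, n = 3) was below the array medians, as was that in mesenchymal HCC827 cells (4.53 ± 0.25, SD, n = 3), and the part of these low levels in the differences was not tested. NCI-H358 and HCC827 differed by 1.03 (SE 0.31, adjusted p = 0.0139), which was 0.79 without the first parental HCC827 array, 0.90 without the second mesenchymal HCC827 array and 0.996 without the first parental NCI-H358 array, each under 2-fold.

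There were 3 further calls, 1 each for SPRY2, SPRY4 and ETV5. The change of SPRY2 was higher in NCI-H358 than in HCC827 by 1.34 (SE 0.14, adjusted p = 7.87e-07). For SPRY4 the change in NCI-H358 minus that in A549 was -1.27 (SE 0.14, adjusted p = 1.28e-06). For ETV5 the change in NCI-H358 was below that in HCC827 by a difference of -1.04 (SE 0.13, adjusted p = 8.14e-06). This last value lay close to the 2-fold line and was -0.991 without the third parental HCC827 array, -0.978 without the first mesenchymal HCC827 array, -0.999 without the third parental NCI-H358 array and -0.995 without the first mesenchymal NCI-H358 array. No difference between lines was called for DUSP4, SPRED1, SPRED2 or ETV4, among which the largest was 0.87 for DUSP4 between HCC827 and A549.

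Parental cells of the lines already differed in several members. Between parental HCC827 and A549, 4 members were called (18.8% of all genes). DUSP4 at -3.12 and DUSP5 at -1.74 were lower in HCC827, and DUSP6 at 1.83 and SPRY1 at 2.96 were higher. The SPRY1 value may be a lower limit, as parental A549 was dim, but this was not tested. Between parental NCI-H358 and A549, 3 members were called (20.4% of all genes), all higher in NCI-H358. They were SPRY1 by 4.80, with the same caution, DUSP6 by 3.25 and SPRED1 by 1.37. Between parental NCI-H358 and HCC827, 5 members were called (15.2% of all genes), again all higher in NCI-H358: DUSP4 by 2.90, SPRY1 by 1.84, DUSP6 by 1.43, SPRED1 by 1.38 and SPRY4 by 1.01. The SPRY4 value fell under 2-fold without the second parental HCC827 array (0.96) or the first parental NCI-H358 array (0.95). The estimates of all 10 members lay above 0 in that last comparison, from 0.15 for SPRY2 to 2.90 for DUSP4, with a median of 0.99 against 0.028 over all genes.

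**Figure D3:**
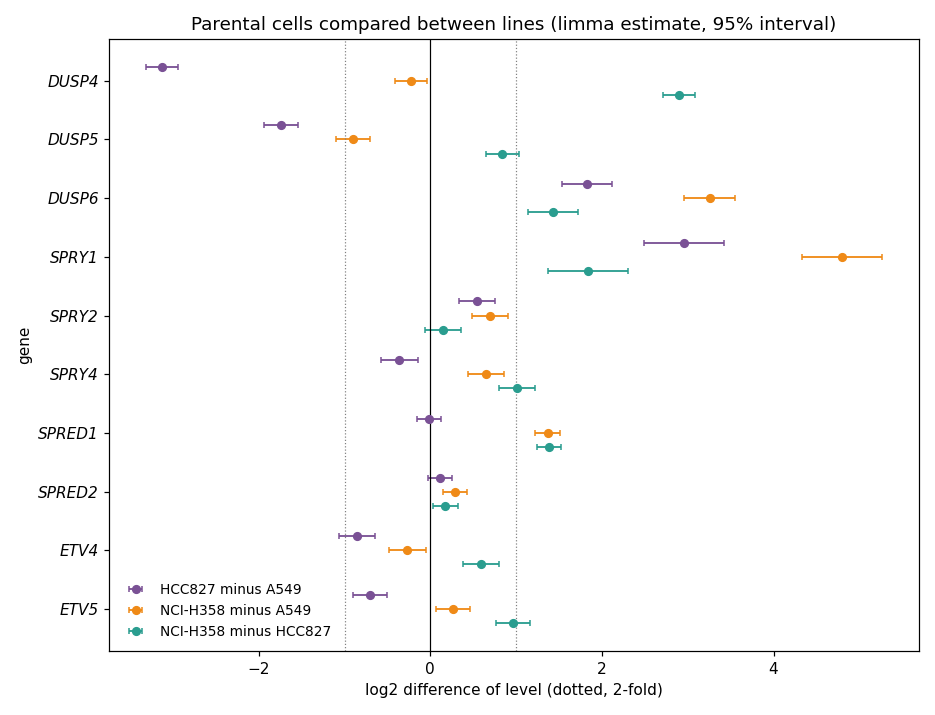
Log2 difference of level between parental cells of each pair of lines (horizontal axis, limma estimate with its 95% interval; dotted lines mark 2-fold) for the 10 genes. NCI-H358 is above HCC827 for every gene by estimate. SPRY1 shows the widest separation, 4.80 between NCI-H358 and A549, which may be a lower limit as parental A549 was dim.

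Ordered by mean level over the 6 groups, the genes fell into several patterns. DUSP4 was highest in parental A549, then parental and mesenchymal NCI-H358, then mesenchymal A549, and lowest in both HCC827 groups, and every step of this order had an adjusted p below 0.05. DUSP6 ran from parental NCI-H358 (11.09) through parental and mesenchymal HCC827 (9.66 and 8.90) to mesenchymal NCI-H358 and both A549 groups, the last 3 of which did not differ from neighbour to neighbour. SPRY1 ran from parental NCI-H358 (9.69) to parental HCC827 and mesenchymal NCI-H358 (7.86 and 7.40, adjusted p = 0.0860). It then dropped to parental A549, mesenchymal HCC827 and mesenchymal A549. Neighbours among these last 3 did not differ, but parental and mesenchymal A549 did (change -0.81, limma adjusted p = 0.00586). SPRY2 was highest in both NCI-H358 groups and parental HCC827, without a difference between neighbours, and lowest in mesenchymal A549 and HCC827 (7.54 and 7.46, adjusted p = 0.471).

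DUSP5 was highest in parental A549 (10.28) and lowest in mesenchymal NCI-H358 (7.72), and the HCC827 groups, which did not differ from each other, came next above the lowest, by 0.82 (adjusted p = 5.35e-07). SPRY4 was level at the top in mesenchymal A549 and parental NCI-H358 (7.13 each, adjusted p = 0.983). SPRED1 was highest in both NCI-H358 groups, 1.04 log2 units above the next group. SPRED2 was highest in mesenchymal HCC827 (9.82) and lowest in parental A549 (8.88). ETV4 was highest in both A549 groups, and ETV5 was lowest in parental HCC827 (8.06), 0.70 below parental A549.

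Over the 18 arrays, the levels of SPRY1 and SPRY2 had a Pearson r of 0.86 and those of DUSP6 and SPRY1 one of 0.80. DUSP5 and ETV4 had an r of 0.72, and SPRY4 and ETV4 one of 0.65. The lowest r was -0.61, between DUSP5 and SPRED2. DUSP6 had an r of -0.079 with DUSP4 and of 0.019 with DUSP5. The 18 arrays fall into only 6 groups, so these values describe the order of a few group means.

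**Figure D4:**
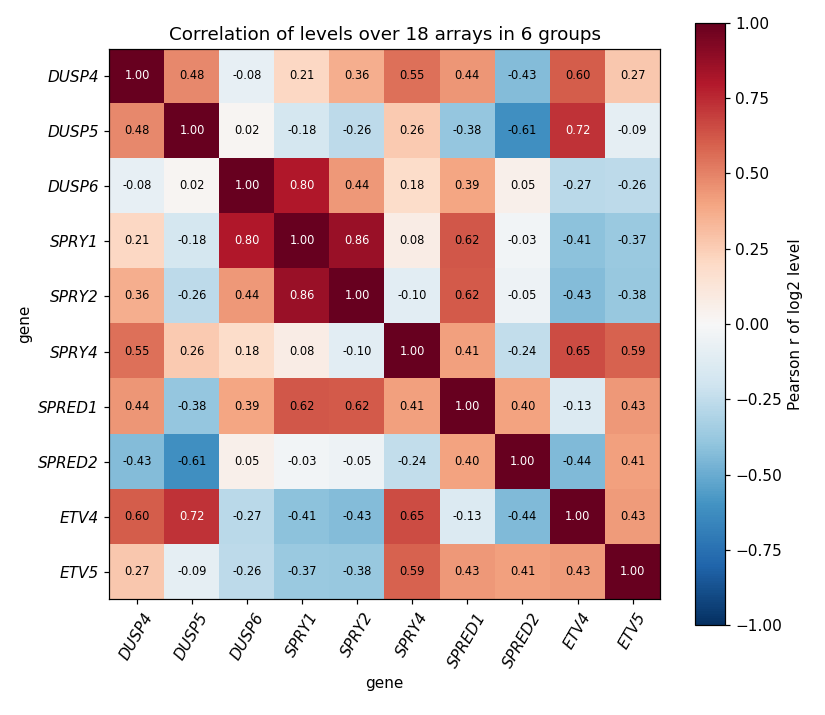
Pearson r between the log2 levels of each pair of the 10 genes over 18 arrays in 6 groups, from -1 (blue) to 1 (red), with the value in each cell. SPRY1 pairs with SPRY2 at 0.86 and with DUSP6 at 0.80, while DUSP5 and SPRED2 stand at -0.61.

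For the 4 members whose group means spanned more than 2 log2 units, the genes of most similar pattern were found over all 19849 genes and the 18 arrays. For DUSP6 these were CEACAM1 (r = 0.983) and FAM83A (0.980). For SPRY1, HS3ST1 had an r of 0.987. For DUSP4 they were CRIP1 (0.985) and NDUFV3 (0.984), and for DUSP5 AP2B1 (0.971) and THSD4 (0.965). Each was picked for its high r among all genes, and no test was made.

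The rest of the pathway was described with 8 lists of 88 genes, of which 87 were measured and SPRED3 had no row. The calls were 16 higher and 7 lower for A549, 14 and 14 for HCC827, and 10 and 8 for NCI-H358. Over all genes, the shares called higher and lower were 4.15% and 3.87% for A549, 4.89% and 6.58% for HCC827, and 3.96% and 5.42% for NCI-H358, and the median changes were -0.021, 0.0051 and 0.015. The upstream receptors and ligands held most of the falls: of 15 ERBB and FGF receptor and EGFR ligand genes, the calls were 5 lower and 3 higher for A549, 8 lower and 3 higher for HCC827, and 7 lower and 4 higher for NCI-H358. The median change of that list was -0.38, -1.37 and -0.52. ERBB3, a receptor that signals with EGFR or ERBB2, was lower in all lines, with changes of -1.81, -5.64 and -5.97 in A549, HCC827 and NCI-H358. BTC, an EGFR ligand gene, changed by -1.71, -3.85 and -2.67 in the same order. The ligand genes AREG and EREG were also called lower in all lines, with changes of -3.85 or below, though the signal of AREG may include that of a near-identical copy. HBEGF, another EGFR ligand gene, went the other way, with changes of 2.24, 1.97 and 1.54.

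Within the kinase cascade, 18 genes were measured and few passed. In A549 1 was called lower, RPS6KA5, a kinase downstream of ERK, with a change of -1.35. HCC827 had 2 called higher and 1 lower, and NCI-H358 had 2 called higher. MRAS, a RAS-related GTPase, had the largest change of the list in both of these lines, 1.92 and 1.79. Of 12 adaptor and exchange factor genes, 2 were called higher in A549, led by the RAS exchange factor gene RASGRP3 (4.24). In HCC827 1 was called higher and 2 lower, led by RASGRP1 (2.17). The parental means of RASGRP3 in A549 (4.22) and of RASGRP1 in HCC827 (5.77) lay below the array medians of 6.31 to 6.47. None of the 12 was called in NCI-H358 by limma at 2-fold, where 7 had an unadjusted p below 0.05 and FRS2, an adaptor of FGF receptors, came closest at 0.92.

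A list of genes tied to the early ERK response had calls in both directions. It mixes genes induced by ERK with genes of transcription factors that act in the response, ELK3 among them, so it is not a list of outputs alone. Of its 14 genes, A549 had 4 called higher, HCC827 had 5 called higher and 2 lower, and NCI-H358 had 3 called higher. The medians were 0.36, 0.31 and 0.0072. ELK3, an ETS factor, and PLAUR, the urokinase receptor gene, were called higher in all lines. The changes of ELK3 were 1.21, 1.30 and 1.02 and those of PLAUR 1.73, 1.25 and 1.10. EGR1, a classical immediate early gene, rose by 2.02 in A549 and fell by 2.62 in HCC827, and its change was -0.047 in NCI-H358 (adjusted p = 0.895). MYC had the largest change of the list in NCI-H358, 1.34.

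Of 7 further MAPK phosphatase genes, the calls were 2 higher for A549, 1 for HCC827 and 0 for NCI-H358 (4 at an unadjusted p below 0.05 by limma), and none was called lower or was lower at an unadjusted p below 0.05. DUSP10, which acts on JNK and p38, changed by 2.06 in A549 and 0.77 in NCI-H358, and DUSP1, an immediate early phosphatase gene, by 1.29 in HCC827. Of 15 RAS GTPase-activating and other inhibitor genes, the calls were 2 higher and 1 lower for A549, 1 lower for HCC827 and 1 higher for NCI-H358. ERRFI1, an EGFR inhibitor induced by the pathway, changed by -2.02 in A549. IL17RD, an FGF-signalling inhibitor also known as Sef, changed by -1.08 in HCC827, and PEA15, which holds ERK in the cytoplasm, by 1.48 in NCI-H358. The paralogs SPRY3 and ETV1 were not called in any line. At an unadjusted p below 0.05 by limma only ETV1 differed, in A549 (-0.83) and NCI-H358 (-0.68).

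A list of 4 genes that are scored together with DUSP4, DUSP6, SPRY2, SPRY4, ETV4 and ETV5 in a published transcript score of MAPK activity was examined apart. In A549 3 of these 4 were called higher, in HCC827 2 were, and in NCI-H358 1 was called lower. At an unadjusted p below 0.05 by limma, 3 were higher and 0 lower in A549. In HCC827 2 were higher and 2 lower, and in NCI-H358 all 4 were lower. The median changes were 1.07, 0.51 and -0.78. EPHA4, an ephrin receptor gene, had the largest change in A549 (2.37) and HCC827 (4.58), and EPHA2 that in NCI-H358 (-1.09). The EPHA4 means in parental and mesenchymal A549 cells, 3.30 and 5.67, were both below the array medians of 6.31 to 6.47. So was its mean in parental HCC827 cells, 4.10, while that in mesenchymal HCC827 cells was 8.67. No test of a list was made.

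**Figure D5:**
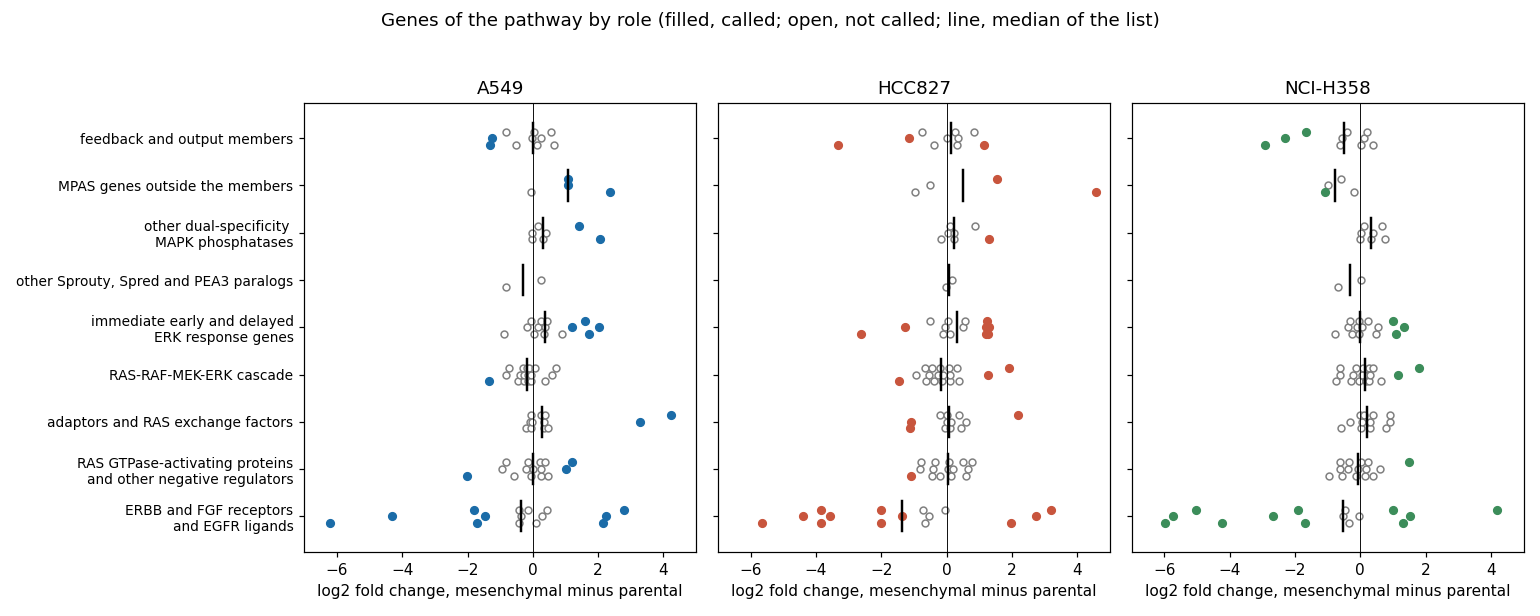
Log2 change, mesenchymal minus parental (horizontal axis), of the 10 members and of the 8 pathway lists in A549, HCC827 and NCI-H358, with genes called as filled points, the others as open points, and the median of each list as a vertical line. The receptor and ligand genes hold the changes furthest below 0, down to -6.23 for AREG in A549. Most genes of the kinase cascade are open points in each line.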

How the data were processed

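RNA of parental and TGFβ-treated A549, HCC827 and NCI-H358 cells was hybridized to Affymetrix U133 Plus 2.0 arrays, 18 in all, 3 per group. RMA-normalized log2 values, deposited by the authors, covered 19849 genes, each through 1 probe set chosen by a rule not given in the sources used here, so other probe sets of the members were not analysed here. RMA equalizes the distribution of signal between arrays, so a shift of all genes would not be seen. Columns were matched to samples by title, and 0 columns were left over. Array medians lay between 6.31 and 6.47. The standard deviation of log2 differences between arrays of a group was 0.163 to 0.282, and no pair was counted as 1 sample.

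A single limma fit (version 3.58.1, R 4.3.3) covered all arrays as 6 groups without covariates, which gave each gene a common spread. Contrasts were EMT against parental per line, the differences of these changes between lines, and parental cells of each pair of lines, each adjusted over all 19849 genes. An exact permutation test of 3 against 3 arrays cannot go below p = 0.1 and was not used. The p-values measure the spread between these samples, which may be partly technical, and the number of arrays limits the precision. Members and lists were chosen with earlier results of these data known. Named were all members, list genes called in 1 direction in all lines, per list and line at most the gene of largest change, and the 2 genes most correlated with each member spanning over 2 log2 units. For SPRY1, 1 of these is not reported here. The markers CDH1, CDH2, VIM, ZEB1 and CD14 and the paralog SPRY3 were named outside that rule after their values were seen. Promoter sequences came from RefSeq GRCh38.p14, and 19326 gene IDs of the table were found in RefSeq.

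Alternatives were other thresholds, a variance trend with intensity, removal of dim probe sets, centring of arrays, separate fits, the t-test that the methods name for data in general (for arrays they name limma) and each array left out. Tested on simulated data of 19849 genes, the fit recovered 200 of 200 genes changed 4-fold in each line, with 0 false calls. The simulated noise was independent for each gene and array at the gene's own spread, without any shift shared by arrays. No change smaller than 4-fold was simulated. Such a setting makes full recovery likely from the start, so it checks the code and not the calls made here.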

Additional observations from a re-analysis of the deposited data

Results flagged for a closer look

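In 10 comparisons the EMT change of a member differed between 2 cell lines by a direct test of the difference (limma, adjusted over all genes, more than 2-fold). For DUSP5 the difference was 1.33 for HCC827 minus A549 and -1.69 for NCI-H358 minus HCC827. For DUSP6 it was -3.03 for NCI-H358 minus A549 and -2.15 for NCI-H358 minus HCC827. For SPRY1 it was -2.51 for HCC827 minus A549, -1.48 for NCI-H358 minus A549 and 1.03 for NCI-H358 minus HCC827. For SPRY2 it was 1.34 and for ETV5 -1.04, both for NCI-H358 minus HCC827. For SPRY4 it was -1.27 for NCI-H358 minus A549, where every mesenchymal array lay above the parental arrays in A549 and below them in NCI-H358.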

How the results depend on the processing

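Of 1140 member values under alternatives other than the thresholds, 1119 kept their direction and their side of the threshold. The variance trend, dim filter, separate fits and t-test leave the change itself as it is, so these settings could not alter a direction. A value under 2-fold counted as kept even where its adjusted p crossed 0.05. With no fold threshold, the members called were 7, 9 and 7 for EMT against parental in A549, HCC827 and NCI-H358, 9, 9 and 9 for the differences HCC827 minus A549, NCI-H358 minus A549 and NCI-H358 minus HCC827, and 8, 10 and 9 for the same pairs of parental cells. All genes called were then 8617, 9093 and 8211; 8379, 8503 and 7516; and 11324, 11496 and 10450. At the study's thresholds the members were 0, 1 and 1; 1, 1 and 0; and 2, 2 and 1, and all genes 378, 585 and 430; 579, 597 and 409; and 1023, 1229 and 658. The counts of all genes at the thresholds used here were 1592, 2278 and 1862; 2650, 2530 and 2181; and 3731, 4059 and 3015. By the methods' t-test, which the methods name for data in general while naming limma for the arrays, with Benjamini-Hochberg adjustment and run for EMT and for parental cells but not for the differences, 6, 6 and 6 members had an adjusted p below 0.05 for EMT, and SPRY1 in A549, DUSP4, DUSP6 and SPRY4 in HCC827 and ETV4 in NCI-H358 did not. Values near 0 changed sign: ETV4 in A549 was 0.040 with centred arrays, and with 1 array left out SPRED2 in A549 ran from -0.0064 to 0.096, DUSP5 in HCC827 from -0.0019 to 0.053, SPRED1 in NCI-H358 from -0.0044 to 0.053 and SPRED1 between parental HCC827 and A549 from -0.070 to 0.042. With 1 array left out, ETV5 between parental NCI-H358 and HCC827 was 1.03 or 1.02 and DUSP5 between parental NCI-H358 and A549 was -1.01, just past 2-fold. The dim filter kept all 10 members among 12076 genes. No paired analysis was possible because the labels give no replicate numbers. Low signal limits SPRY1 in both A549 groups and in mesenchymal HCC827 cells. Mean levels of ETV4 in parental HCC827 and mesenchymal NCI-H358 cells and of SPRY4 in parental HCC827 cells also lay below the array medians. The part of weak signal in their small changes was not tested.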
